A study of Oryctolagus cuniculus with 20 samples.

Results

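The comparison of 8 weeks of internal derangement with no treatment concerns 8 of the 20 arrays of this rabbit study, 4 in each group. The arrays were chosen by their titles alone. Each array measured total RNA from condylar cartilage of the temporomandibular joint (TMJ), the jaw joint, of a male rabbit (Oryctolagus cuniculus) aged 6 months. In the 8-week group the left joint had been subjected to internal derangement (ID), in which the disc of the joint is out of its normal place, and the tissue was taken 8 weeks later. The control group had no treatment at all; it carries no time point, and none of the 5 groups is labelled as sham-operated. The effects of derangement, of the procedure and of the passing weeks therefore cannot be told apart. According to the design text the groups are made of separate rabbits, so each array was taken as 1 animal.

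Condylar cartilage differs from the cartilage of most joints. Its surface is fibrous and rich in type I collagen, and beneath it lie a proliferating layer and a hyaline layer that makes type II collagen and aggrecan and passes through a hypertrophic stage, marked by type X collagen, into bone. Jaw muscle inserts close to the condyle. In a deranged joint the disc no longer shields the condyle from load, and the tissue is known for remodelling, with matrix proteases and inflammatory mediators among the genes most often studied.

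Levels are given on the log2 scale relative to the 75th percentile of signal of the same array, so 0 is a moderately bright probe and 1 unit is a doubling. A probe was tested if it was well above background, by the scanner software's own flag, on at least 3 of the 4 arrays of either group. This held for 26153 of 43603 probes. A change was called at an adjusted p under 0.05 in limma (Benjamini-Hochberg adjustment over the probes tested), in a model of all 5 group means over the 20 arrays. Only 717 tested probes, 1 per gene, stand for a named gene.

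The groups also differed in how the arrays were run and read. The control arrays lay together on 1 slide. The 2-week arrays lay on a different slide, but their scan day was that of the controls. The 8-week arrays had a further slide to themselves and were read on the later day, as were the 1-week and 4-week groups. Slide, scan day and derangement cannot be told apart in this comparison. On the 8-week arrays 60.3% to 61.8% of spots were well above background, against 54.5% to 58.5% on the control arrays, and the ranges do not overlap. The 75th percentile of signal overlapped, at 350.5 to 497.5 against 320.2 to 485.9. Values of the 2-week group are given beside the results because it had the scan day of the controls, though not their slide. That comparison uses the same 4 control arrays.

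The tissue carried the transcript of type II collagen at a high level on every array. COL2A1 stood at 8.63 ± 0.98 (SD, n = 4) at 8 weeks and 8.94 ± 0.49 (SD, n = 4) in the controls. CNMD, which encodes the cartilage factor chondromodulin, was above background on all 8 arrays, and so was ACAN, the gene of aggrecan. SOX9, the master transcription factor of cartilage, and COL1A1 had no tested probe by name. The defining markers of skeletal muscle were also present, on the control arrays above all, as described with the muscle genes.

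The array probes are 60 bases long, and those on which the largest changes and the brightest rise rest are shown here as the scanner files give them, 5′ to 3′, with no base singled out. TNNC2 carries the largest fall of a named gene, OVGP1 is 1 of the largest rises and ACP5 is the rise at the highest level among the genes named here. The A_04 names belong to the probes with no gene name that rose most (the upper 3 of these) and fell most (the lower 3).
TNNC2: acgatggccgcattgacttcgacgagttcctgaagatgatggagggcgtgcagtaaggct
OVGP1: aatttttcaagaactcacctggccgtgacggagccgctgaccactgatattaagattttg
ACP5: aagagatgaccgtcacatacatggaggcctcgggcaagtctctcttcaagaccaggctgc
A_04_P040606: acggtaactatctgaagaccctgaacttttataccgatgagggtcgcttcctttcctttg
A_04_P079982: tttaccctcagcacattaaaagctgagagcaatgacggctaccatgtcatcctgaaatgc
A_04_P033663: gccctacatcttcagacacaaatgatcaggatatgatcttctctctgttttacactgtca
A_04_P004216: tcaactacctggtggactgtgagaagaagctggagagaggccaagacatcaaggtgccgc
A_04_P029076: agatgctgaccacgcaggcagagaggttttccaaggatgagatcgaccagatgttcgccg
A_04_P030742: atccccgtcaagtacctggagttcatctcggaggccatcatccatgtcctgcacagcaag

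At 8 weeks 3419 of 26153 probes were called (13.1%), 2262 higher (8.65%) and 1157 lower (4.42%) than in the controls. Of the 717 named genes 123 were called (17.2%), 69 higher (9.62%) and 54 lower (7.53%). Changes of at least 1 log2 unit made up 885 of the rises and 212 of the falls among probes, and 46 and 31 among named genes. The largest named falls were genes of the contractile machinery of skeletal muscle, down by up to 6.99 log2 units. Most of the largest named rises were of genes well above background on no control array, and none was above 2.65 units.

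Direction went with brightness. When the probes were divided into 4 equal groups by their mean over the 8 arrays, in the dimmest group 1165 of 6539 were called higher and 161 lower, with a median difference of 0.32. In the brightest group 109 of 6538 were called higher and 654 lower, with a median of -0.13. The 2-week group differed from the same controls by a median of 0.04 and 0.05 in these groups of probes. The filter used the 8-week and control arrays but not the 2-week arrays, so these medians are not on equal terms with those at 8 weeks. Some dim probes were tested for their brightness at 8 weeks, and none for their brightness at 2 weeks. Of 1012 tested probes that were well above background on no control array, 585 were called higher and 0 lower, and since they were tested only because the 8-week arrays were bright, this count could go only one way. Among probes above background on all 4 control arrays, 1341 of 22251 were called higher and 1086 lower. The part of scan day and slide in this was not tested.

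**Figure D1:**
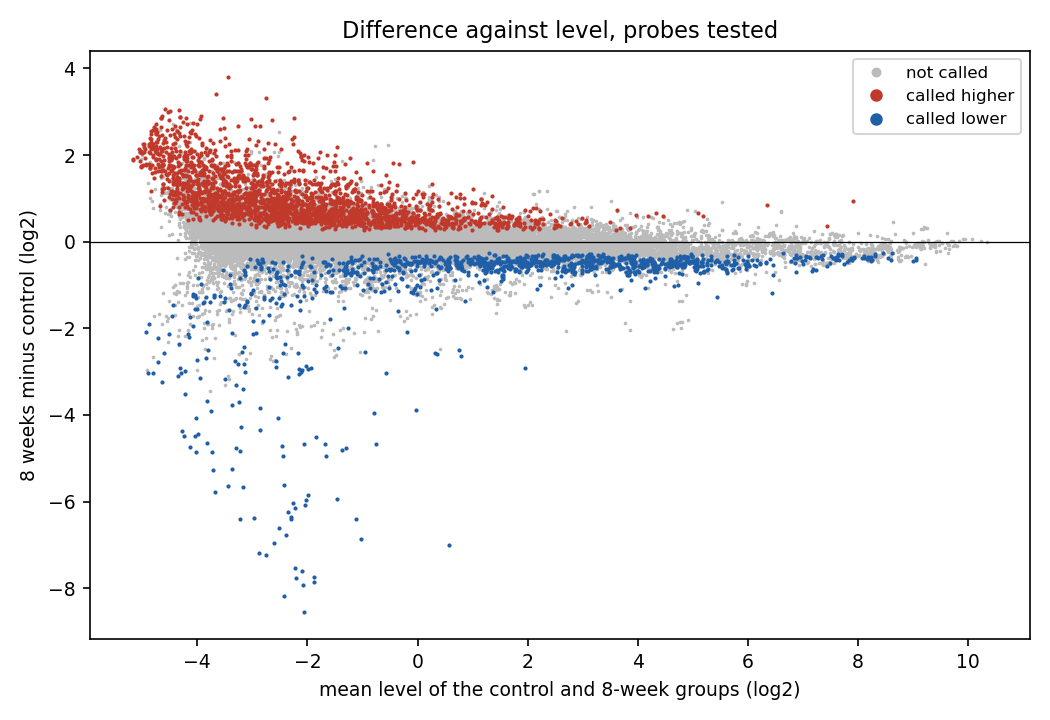
Each point is a probe, at the mean of its control and 8-week levels (log2, horizontal) and its difference, 8 weeks minus control (log2, vertical), in red or blue where it was called. The 2262 rises gather among dim probes, and the 1157 falls include both a band of small falls among bright probes and a scatter of falls beyond 4 log2 units.

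The scaling and the background correction set how many probes were called and which way. Centring each array on its median in place of the 75th percentile moved the median difference of all probes from 0.04 to -0.13, and of 3609 calls only 37.8% were then higher, against 66.2% as reported. Under normexp, a background correction that leaves no negative values and adds an offset of 50, 39 probes were called, or 43.6% higher, with 2175 at an unadjusted p under 0.05. One 2-week array stood apart under that correction, and without it 462 probes were called, 223 higher and 239 lower, a choice made after seeing the data. Control replicate 3 also stood apart, though less, with its lowest percentile at -1.35, against -2.83 to -2.43 on the other controls. Normexp on the 8 arrays alone, with no 2-week array among them, called 3 probes, a setting also added after seeing the data. The part of control replicate 3 in the normexp counts was not tested. Without control replicates 1 and 2, those with the most muscle RNA, 943 probes were called.

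**Figure D2:**
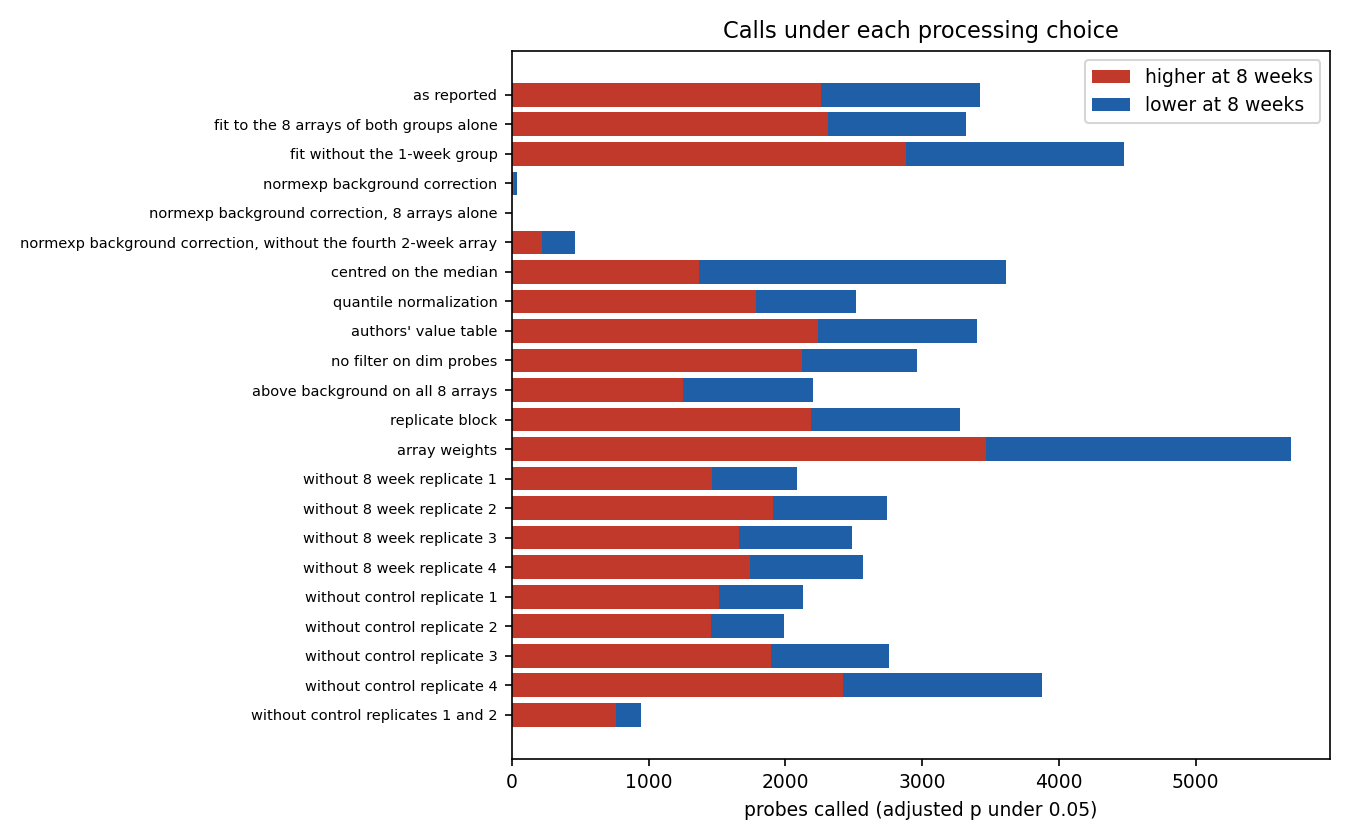
Bars give the number of probes called at an adjusted p under 0.05 (horizontal), split into higher (red) and lower (blue) at 8 weeks, for each way of processing or set of arrays (vertical). The count ran from 3 with normexp on the 8 arrays alone to 5695 with array weights, and stood at 3419 as reported.

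Genes of skeletal muscle made up most of the large falls, and their list had the lowest median of the 25 lists. Of 27 tested members of the muscle list 19 were called lower and 0 higher, where 7.53% of all named genes were called lower, and for 19 of the 27, not all of them the same genes, the 8-week arrays all lay below the controls (11.9% of named genes). The median difference over the 27 was -3.91, against 0.02 over the 717 named genes, and -3.02 with genes absent at 8 weeks taken at their bound. In the fit to the 8 arrays alone, where the spread of the controls is not shared with the tighter groups, 10 of the 27 were called (17.2% of all named genes in that fit).

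The mean level of the 27 genes was -3.46, -3.48, -3.4 and -3.34 on the 8-week arrays. On the control arrays it was 0.78, 3.22, -1.16 and -1.75. The treated arrays were close together and all below every control, while the controls were widely spread, with replicate 2 highest and replicate 1 next. The difference was -3.69, and -1.96 without control replicates 1 and 2. In that setting 14 of the 27 genes were called lower, among 17 of the 717 named genes in all. Only 10 of the 27 were well above background on all 8 arrays; several of the others were tested only because the controls were bright, so their difference could go only one way. Over those 10 genes the difference of the mean level was -2.42, the median difference was -2.05 and 5 were called lower. Among all named genes above background on all 8 arrays 33 were called lower.

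TNNC2, troponin C of fast fibres, through which calcium switches contraction on, was at 5.57, 7.73, 1.98 and 0.96 in the controls and at -3.22, -2.72, -3.05 and -2.71 at 8 weeks. Every control lay far above the 8-week arrays, but the controls themselves were widely spread. Its fall was -6.99 ± 1.05 (SE; limma, adjusted p = 0.000298), and it was 1 of the 2 named genes that were still called with normexp, at -5.85.

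The heavy chains of myosin, the motor protein of muscle, fell in each of their fast, slow and developmental forms. MYH1, a fast chain, was at 3.49, 3.74, -2.46 and -1.29 in the controls and at -6.42, -6.26, -5.2 and -6.44 at 8 weeks, where it was well above background on no array. Its control arrays split into replicates 1 and 2, both bright, and replicates 3 and 4, both dim, all above the 8-week arrays. It was at least 34.4-fold lower, or at least 5.13-fold without control replicates 1 and 2 (limma, adjusted p = 0.000622).

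MYH2, the other fast chain, was at 3.43, 6.62, 0.73 and -1.16 in the controls and at -4.65, -4.46, -4.54 and -4.17 at 8 weeks, also above background on no 8-week array. The groups did not overlap. MYH2 was at least 97.8-fold lower (limma, adjusted p = 0.000817), and at least 15.9-fold without those 2 controls.

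MYH7, the chain of slow muscle and heart, was at 2.21, 3.47, 1.05 and -0.77 in the controls and at -4.55, -4.34, -4.58 and -4.27 at 8 weeks. Its 8-week values sat together, above background on none of the arrays, and every control was higher. The fall was at least 52.8-fold (limma, adjusted p = 6.46e-05) and at least 20.7-fold without control replicates 1 and 2, and MYH7 was the second of the genes called with normexp. The sequences of myosin heavy chains are much alike, so a probe named for one of them may also bind another.

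The developmental chains MYH8 and MYH3 had their highest level in control replicate 2, at 5.46 and 3.88. MYH8 fell by 6.62 ± 1.33 (SE; limma, adjusted p = 0.00324), with 1 of 4 arrays above background at 8 weeks. For MYH3 the fall was at least 8.88-fold, or 5.91-fold without control replicates 1 and 2, with 3 of 4 controls above background, and it was not called in the fit to the 8 arrays alone (adjusted p = 0.066).

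Other parts of the fibre fell as well. MYL1, a light chain of fast myosin, fell by 6.41 ± 1.21, with 2 of 4 arrays above background at 8 weeks. ATP2A1, the calcium pump of the fast muscle reticulum, fell by 4.95 ± 1.01, also with 2 of 4 arrays above background, and its 8 other probes fell by 5.96 to 6.77. TTN, the giant protein titin that holds the sarcomere together, fell by 4.66 ± 0.98. NEB, or nebulin, which spans the thin filament, was above background on no 8-week array and at least 7.58-fold lower. CASQ2, which stores calcium in the reticulum, was likewise at least 10.9-fold lower, and CKM, the creatine kinase of muscle, fell by 4.5 ± 1.09 (SE) with 1 of 4 arrays above background. Without control replicates 1 and 2 the bounds were 2.15-fold for NEB and 1.6-fold for CASQ2, and the falls were 4.4 for TNNC2, 3.39 for MYH8, 3.47 for MYL1, 2.45 for ATP2A1, 2.46 for TTN and 2.11 for CKM. CKM and CASQ2 missed the threshold in the fit to the 8 arrays alone (limma, adjusted p = 0.0689 and 0.0555), and CKM also did without control replicates 1 and 2 (0.197).

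**Figure D3:**
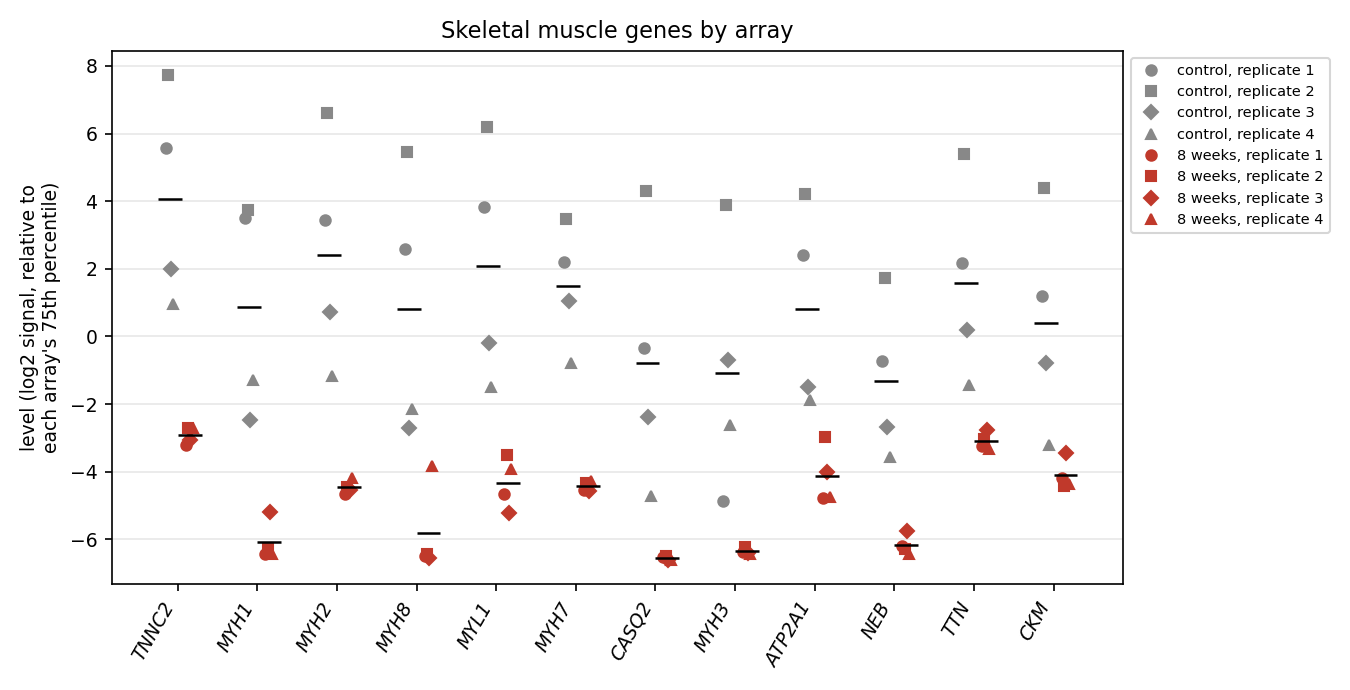
Levels (log2 relative to the 75th percentile, vertical) of the 12 named genes of largest fall (horizontal) are shown for each control array (grey) and 8-week array (red), with a black line at each group's mean and a symbol for each replicate number. Every red point lies below every grey point of its gene, and control replicate 2, the grey square, is the highest for all of them.

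The other called members of the muscle list were TPM2, MYL11, ANKRD1, SLN, ACTA1, MYOZ1 and TNNI2, with fitted falls from 1.82 (TPM2) to 3.96 (SLN). Among the members not called, the phosphorylase PYGM stood at 0.18 ± 0.5 and ATP2A2, a calcium pump that other cells use too, at 0 ± 0.11 (SE). The muscle genes of the 2-week group, scanned with the controls, also lay below them, with a median difference of -3.73. TNNC2 was at -2.23 on average at 2 weeks, -1.31 at 1 week, -3.05 at 4 weeks and -2.93 at 8 weeks, against 4.06 in the controls. In bulk tissue, fewer muscle cells in the sample and less RNA of these genes per cell cannot be told apart.

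SLC2A4, the insulin-responsive glucose transporter of muscle and fat, was at -0.89, 1.3, -2.7 and -5.64 in the controls and at -6.36, -6.27, -5.15 and -6.42 at 8 weeks. The groups overlapped through control replicate 4, and replicate 2 was again highest. It was at least 4.76-fold lower (limma, adjusted p = 0.013), but at least 1.05-fold and no longer called without control replicates 1 and 2 (0.223), nor was it called in the fit to the 8 arrays alone (0.0739). SLC2A4 was the only 1 of the 10 tested genes of hypoxia and glycolysis that was called (17.2% of all named genes were), with a list median of -0.34. The level of the muscle list moves with it, and the part of that in its fall was not tested.

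The rises among named genes were of another kind. The 12 largest lay between 1.76 and 2.65 log2 units, and for 10 of the 12 no control array was well above background, so the fitted sizes rest in part on dim spots. By function they were scattered over a synthetic enzyme, ion channels, receptors and proteins of epithelia, with TH, HTR3B, GJA10, KCNE1 and SERPINB2 the members of fixed lists. With normexp none of the 12 was called, and their differences ran from -0.02 (HTR3B) to 0.62 (OVGP1); the offset of that correction compresses dim probes.

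TH, tyrosine hydroxylase, which makes the precursor of dopamine and noradrenaline, was at -6.34, -6.13, -5.72 and -5.73 in the controls and at -3.23, -3.64, -3.37 and -3.08 at 8 weeks. It was well above background on all 8-week arrays and on no control. The rise was at least 1.4-fold by the bound, and 2.65 ± 0.27 in the fit (SE; limma, adjusted p = 6.53e-06). In the 2-week group, too, TH was well above background on no array. Its level there was -4.47, a fitted 1.51 above the controls (limma, adjusted p = 0.0166). Since TH was dim in both of these groups, that difference is not a measured rise. TH was at -2.89 and -3.32 in the 1-week and 4-week groups.

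GJA10, a connexin of gap junctions, was at -5.71, -5.71, -5.5 and -5.2 in the controls and at -3.12, -3.18, -3.13 and -2.88 at 8 weeks. Both groups were tight and lay far apart. The rise was at least 1.67-fold (limma, adjusted p = 7.25e-08). GJA10 was at -2.52 and -3.02 in the 1-week and 4-week groups, scanned on the day of the 8-week arrays, and well above background on no array of the 2-week group, scanned on that of the controls.

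SERPINB2, the plasminogen activator inhibitor of macrophages and epithelia, was at -4.73, -5.34, -5.12 and -4.48 in the controls and at -2.83, -3.04, -2.63 and -2.54 at 8 weeks. The groups did not overlap. SERPINB2 was at least 2.08-fold higher (limma, adjusted p = 0.000979), and it was well above background on no array of the 2-week group.

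OVGP1, a glycoprotein of the oviduct, was at -4.31, -3.92, -3.92 and -4.07 in the controls, where 1 array was above background, and at -1.45, -1.92, -2.14 and -1.79 at 8 weeks. Every 8-week array was well above every control. The rise was 2.23 ± 0.24 (SE; limma, adjusted p = 1.36e-05), and the 2-week level was intermediate at -2.84.

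KCNE1, a subunit of the slow potassium channel, was higher by at least 1.79-fold, and its other probe rose by 1.33. CASP14, a protease of skin differentiation, was at least 1.3-fold higher, UPK1B, a protein of the bladder lining, at least 2-fold, and SLC12A3, the sodium chloride transporter of the kidney, at least 1.74-fold. CACNA1E, a calcium channel subunit above background on 2 of 4 controls, rose by 1.76 ± 0.33 (SE). Without control replicates 1 and 2 KCNE1 and CACNA1E differed by 1.42 and 1.11 and were not called (0.0649 and 0.0714). RSSD-1, named as the files give it, was at least 1.22-fold higher. At 2 weeks RSSD-1 was above background on 3 of 4 arrays and higher than in the controls by 1.49 (limma, adjusted p = 0.000193). HTR3B, a subunit of the serotonin receptor channel, has no bound above 1, with 3 of 4 arrays above background at 8 weeks. ADRA2A, an adrenergic receptor, has a bound of 1.13-fold, but its call (limma, adjusted p = 0.0428) was lost when any single array other than 8-week replicate 1 was left out, with adjusted p up to 0.125, and without control replicates 1 and 2 (0.304).

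**Figure D4:**
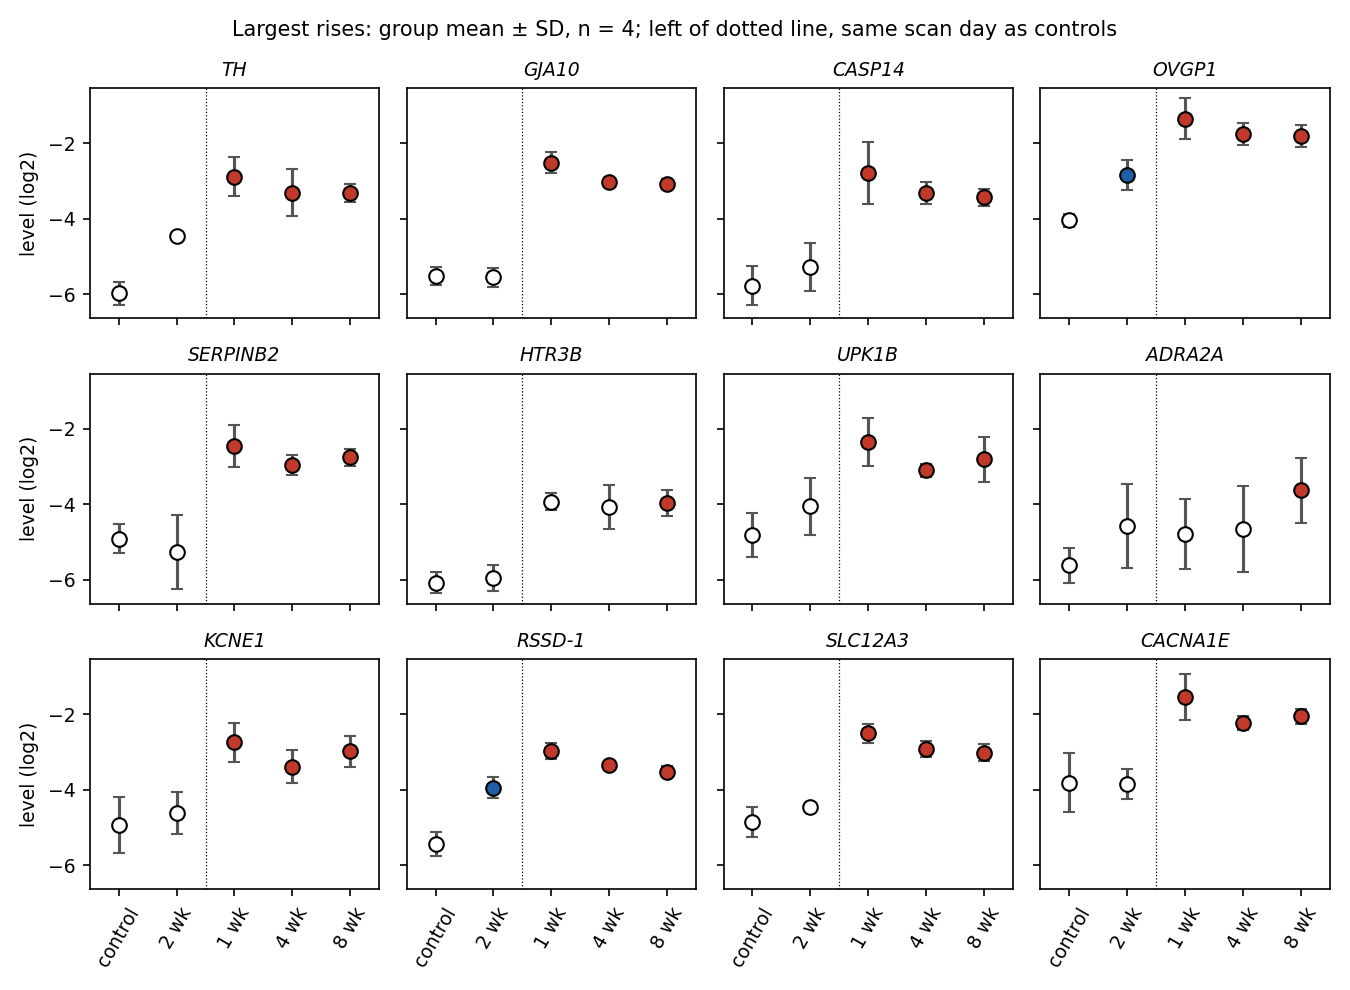
Each panel shows the mean level (log2, vertical) and SD over 4 arrays of 1 of the 12 genes of largest rise in the 5 groups of the study (horizontal), with the groups scanned on the control day left of the dotted line. Filled points mark groups with at least 3 arrays well above background; for GJA10 the control and 2-week means are -5.53 and -5.56, and the 1-, 4- and 8-week means are -2.52, -3.02 and -3.08.

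Only 3 of the 21 genes of the hyaline cartilage list could be tested, and 0 were called, where 17.2% of all named genes were. With limma the smallest adjusted p among them was 0.722, and none had groups that did not overlap. COL2A1, the main collagen of cartilage, was at 8.49, 8.56, 9.26 and 9.46 in the controls and at 9.07, 7.39, 8.39 and 9.67 at 8 weeks. The 8-week arrays held both the highest and the lowest value. The difference was -0.31 ± 0.47 (SE; limma, adjusted p = 0.722), and the 7 other probes of the gene gave -0.44 to 0.38.

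ACAN, the aggregating proteoglycan, differed by -0.02 ± 0.38 and CNMD by -0.24 ± 0.83 (SE). CNMD was at 0.85, 1.57, 2.56 and 3.56 in the controls and at 2.2, 0.31, 1.5 and 3.57 at 8 weeks, and 8-week replicate 2 was lowest for both CNMD and COL2A1. Replicate 4 was highest for both. In the 1-week and 4-week groups, read on the same day as the 8-week arrays, CNMD stood at 4.44 and 4.52, and at 2 weeks at 1.78.

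The genes of hypertrophy and bone gave 0 calls among 9 tested (17.2% of all named genes were called), with a median difference of 0.15. COL10A1, the collagen of hypertrophic cartilage, was at 4.75, 5.11, 7.43 and 5.92 in the controls and at 6.53, 3.45, 3.89 and 7.66 at 8 weeks. It was widely spread within the 8-week group, where replicates 1 and 4 were high and replicates 2 and 3 low. The difference was -0.42 ± 0.87 (SE; limma, adjusted p = 0.803). IHH, the hedgehog signal of prehypertrophic cells, differed by 0.24 ± 0.54, and MMP13, the collagenase of hypertrophic cartilage, by 0.01 ± 0.26 (SE).

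Among the 14 tested genes of fibrous matrix LUM alone was called, where 17.2% of all named genes were, and the list median was -0.13. LUM, the small proteoglycan lumican that regulates collagen fibrils, was at 7.78, 7.28, 6.87 and 6.21 in the controls and at 5.12, 6.02, 6.11 and 6.14 at 8 weeks. The highest 8-week array was just under the lowest control. The fall was -1.19 ± 0.32 (SE; limma, adjusted p = 0.0215) and its second probe gave -1.28. The call was lost without 8-week replicate 1, control replicate 1 or control replicate 2 (adjusted p up to 0.0828) and without both those controls (-0.69, 0.354), and in the fit to the 8 arrays alone (0.0671). COL1A2, a chain of type I collagen and among the brightest genes, differed by -0.11 ± 0.2 (SE), and its 9 other probes ran from -0.12 to 0.34, most of them above 0.

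Of the 6 tested TGF-beta and BMP genes TGFB1 and TGFB2, growth factors of cartilage, had groups that did not overlap, in opposite directions. TGFB1 was at 0.26, 0.47, 0.28 and 0.15 in the controls and at 0.8, 0.85, 0.78 and 0.96 at 8 weeks, with no overlap. The difference of 0.56 ± 0.2 missed the threshold (SE; limma, adjusted p = 0.0704), and passed it in the fit to the 8 arrays alone (0.0124). TGFB2 was lower by 0.38 ± 0.26 (0.368), and also passed in the fit to the 8 arrays alone (0.0465), in which 17.2% of named genes were called. Of all named genes 14.5% had 8-week arrays that all lay above the controls, and 11.9% had them all below. FRZB, a WNT antagonist of articular cartilage, differed by -0.2 ± 0.38 and WNT11 by -0.22 ± 0.48. In the WNT and hedgehog list 0 of 8 were called, and in the TGF-beta and BMP list 0 of 6, with medians of -0.21 and 0.15. In the same fit 17.2% of all named genes were called.

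**Figure D5:**
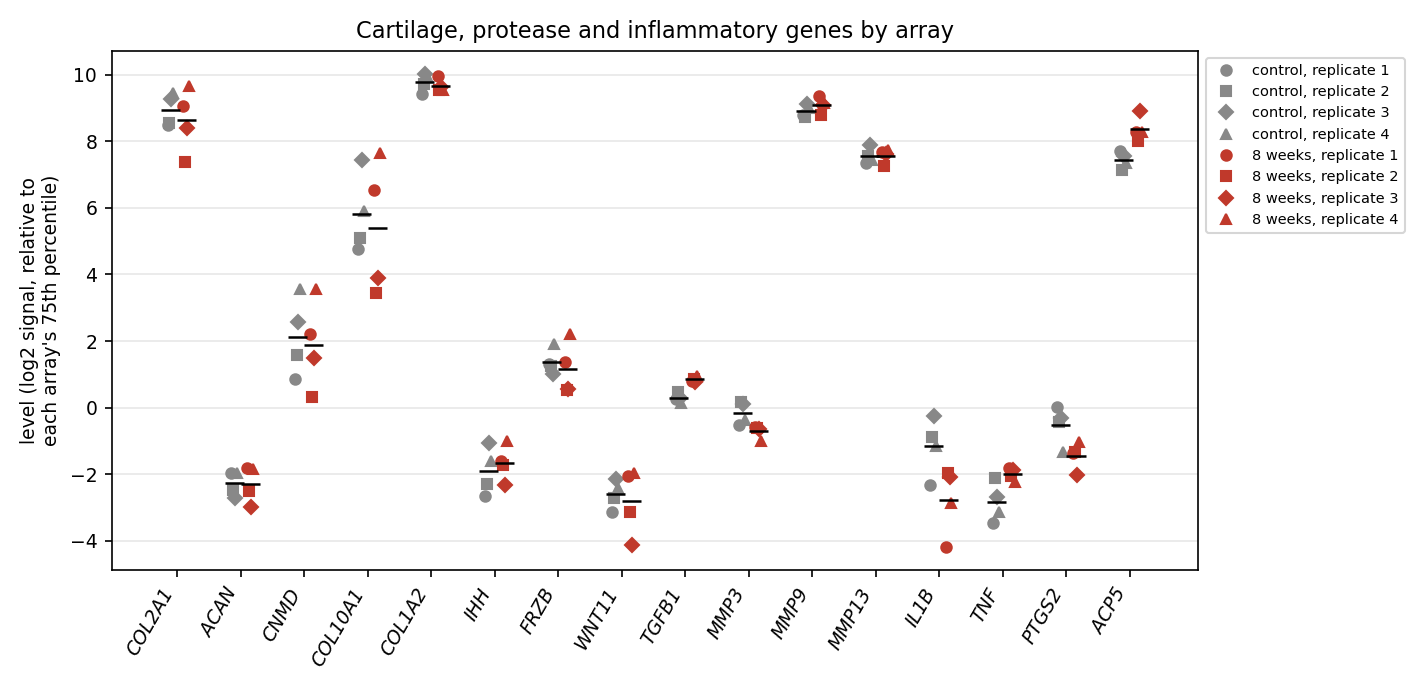
Levels (log2 relative to the 75th percentile, vertical) of 16 genes of cartilage, signalling, proteolysis and inflammation (horizontal) are shown for each control array (grey) and 8-week array (red), with a black line at each group's mean. The red and grey points of COL2A1, CNMD and COL10A1 interleave, and those of TGFB1, MMP3 and ACP5 do not; of these 3 genes only ACP5 was called.

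Calls among matrix proteases and their inhibitors were few. Of 22 tested, SERPINB2 was called higher and MMP12 lower, where 9.62% and 7.53% of all named genes were, and the list median was 0.03. SERPINB2 was well above background on no control array, so its difference could go only one way. MMP12, the elastase of macrophages, was at 0.45, -1.14, 0.09 and -2.57 in the controls and at -4.47, -4.15, -4.97 and -2.08 at 8 weeks. Replicate 4 of the 8-week group, the only 1 above background, lay above the lowest control. The fall of 3.12 ± 0.92 (SE; limma, adjusted p = 0.0317) was lost on leaving out any one of 8-week replicates 1, 2 and 3 or control replicates 1, 2 and 3, with adjusted p up to 0.101, and without control replicates 1 and 2 together (0.258). MMP3, stromelysin, was lower on all 4 treated arrays, by 0.55 ± 0.26, and not called (0.177). MMP9, a gelatinase of osteoclasts and neutrophils, was bright and differed by 0.2 ± 0.21.

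ACP5, the acid phosphatase of osteoclasts, was at 7.71, 7.13, 7.56 and 7.36 in the controls and at 8.29, 8.02, 8.9 and 8.27 at 8 weeks. All treated arrays lay above all controls. It rose by 0.93 ± 0.24 (SE; limma, adjusted p = 0.0171), a call lost when either 8-week replicate 3 or control replicate 2 was left out (adjusted p up to 0.0636) and without both control replicates 1 and 2 (0.127). The 5 other osteoclast genes tested, CTSK and ITGB3 among them, were not called (17.2% of all named genes were), and the list median was 0.02. ACP5 was at 7.65 at 2 weeks and 8.22 and 7.84 at 1 and 4 weeks.

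Among 22 inflammatory mediators PTGS1 and CXCL8 were called higher and IL1RN lower, shares no larger than the 9.62% and 7.53% of all named genes, and the list median was -0.45. PTGS1, the constitutive cyclooxygenase, was at -0.99, -0.98, -0.18 and -0.13 in the controls and at 0.46, 0.64, 0.62 and 0.39 at 8 weeks. The groups did not overlap, and the controls fell into a lower pair, replicates 1 and 2, and a higher one. The rise was 1.1 ± 0.22 (SE; limma, adjusted p = 0.00301), and 0.68 without that lower pair (0.107).

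CXCL8, the chemokine that draws neutrophils, was at -2.35, -2.36, -1.28 and -2.25 in the controls and at -0.65, -0.98, -1.04 and -0.89 at 8 weeks. Control replicate 3 was close to the 8-week arrays and the others well below. It rose by 1.17 ± 0.28 (SE; limma, adjusted p = 0.0104), but of the 3 other probes of the gene 1 was called higher and 1 lower, at -2.1. Without control replicates 1 and 2 the difference was 0.87 (0.201). CXCL8 was at -2.14 at 2 weeks and at -0.73 and -0.88 at 1 and 4 weeks.

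IL1RN, the natural antagonist of interleukin 1, was at 3.04, 3.33, 3.75 and 2.95 in the controls and at 1.96, 2.45, 2.25 and 2.14 at 8 weeks. The groups did not overlap, and its other probe fell by 1.1. The fall was 1.07 ± 0.31 (SE; limma, adjusted p = 0.0286), a call lost on leaving out any one of 8-week replicates 1, 3 and 4 or control replicates 2 and 3 (up to 0.0865), without control replicates 1 and 2 together (0.143) and under quantile normalization (0.0566). IL1RN was at 2.27 in the 2-week group, 1 unit below the controls of the same scan day.

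By their brightest probes the cytokines themselves were not called. IL1B differed by -1.61 ± 0.66, TNF by 0.85 ± 0.28 and PTGS2, the inducible cyclooxygenase, by -0.92 ± 0.36 (SE; limma, adjusted p = 0.122, 0.0515 and 0.105). IL1B was at -2.32, -0.88, -0.26 and -1.16 in the controls and at -4.18, -1.95, -2.09 and -2.86 at 8 weeks. Only control replicate 1 lay among the 8-week arrays. TNF passed the threshold with the replicate number as a block, without the 1-week group and with array weights. Its 4 other probes ran from -0.61 to 0.77, and 1 of them was called higher.

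Markers of leukocytes moved unevenly. CXCR2, a receptor for CXCL8 and a marker of neutrophils, was at -1.89, -1.82, -1.54 and -1.31 in the controls and at -0.37, -0.61, -0.51 and -0.53 at 8 weeks. The arrays of each group lay close together and apart from the other group. CXCR2 rose by 1.14 ± 0.19 (SE; limma, adjusted p = 0.000628), while the neutrophil granule gene S100A8 differed by -1.46 ± 1.63 and the list's other 5 tested members were not called, with a list median of -1.25. This is 1 call among 6 tested genes, where 9.62% of all named genes were called higher. The mean level of the 6 neutrophil genes ran from -3.04 to 1.11 at 8 weeks and from -0.75 to 1.27 in the controls. At 2 weeks CXCR2 was at -1.65, as in the controls, and at 1 and 4 weeks at -0.09 and -0.3.

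All 4 tested macrophage genes (CD14, CD36, MSR1 and APOE) had differences below 0, and 0 were called in limma's fit; their median was -1, and 2 were called in the fit to the 8 arrays alone, in which 17.2% of named genes were called. The mean level of the 4 was -2.83 to -1.53 at 8 weeks and -1.2 to -0.82 in the controls, without overlap. Only 3 of the 4 were well above background on each 8-week array. The remaining gene was absent at 8 weeks and tested only because the controls were bright, so its difference could go only one way. It counts in the mean level, and with it taken at its bound the median was -0.98. Outside the list, and named after their values were seen, AOAH, a lipase of phagocytes, fell by 1.78 ± 0.4 and CX3CR1, the fractalkine receptor, by 1.39 ± 0.35 (SE; limma, adjusted p = 0.00703 and 0.0147). Chosen in this way, AOAH and CX3CR1 cannot serve as support for a fall of macrophage genes. Their calls under the other settings were not examined. HBA, a globin gene of red cells, was at 6.95 ± 0.69 at 8 weeks and 6.26 ± 0.37 in the controls (SD, n = 4) and was not called. Lymphocyte and endothelial genes gave 0 calls among 2 and 6 tested, where 17.2% of all named genes were called.

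Rises were also called among ion channel, gap junction and nerve genes. Of 21 ion channel genes 4 were called higher and 0 lower, where 9.62% of named genes were called higher, and the list median was 0.14. KCNE1, among those 4, was well above background on no control array, so its difference could go only one way. KCNA5, a voltage-gated potassium channel, was at -3.87, -3.18, -3.97 and -3.21 in the controls and at -2.54, -2.28, -2.37 and -2.54 at 8 weeks, without overlap. It rose by 1.13 ± 0.16 (SE; limma, adjusted p = 0.000215), against a level of -3.27 at 2 weeks.

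KCNJ11, the pore of the ATP-sensitive potassium channel, was at -3.46, -2.89, -3.08 and -3.28 in the controls and at -1.78, -2.09, -2.04 and -2.16 at 8 weeks. Every 8-week array was higher, and the rise was 1.16 ± 0.19 (SE; limma, adjusted p = 0.000487). At 2 weeks it was at -3.61. CACNB3, a calcium channel subunit, rose by 0.46 ± 0.13 (adjusted p = 0.0263), a call lost on centring (0.123), on leaving out any one of 8-week replicates 1, 2 and 3 or control replicate 2 (up to 0.0907) and without control replicates 1 and 2 (0.186).

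Of 5 gap junction genes GJA10 and GJA5 were called higher, against 9.62% of named genes. GJA5, the connexin of large vessels and the heart's conduction system, was at -2.23, -1.76, -1.98 and -1.81 in the controls and at -0.52, -0.81, -0.67 and -0.61 at 8 weeks. The groups did not overlap and each was tight. GJA5 rose by 1.29 ± 0.17 (SE; limma, adjusted p = 0.000103) and was at -1.03 at 2 weeks. GJA1, the main connexin of cartilage and bone cells, was not called. TH and HTR3B were the called members, both higher, among 6 nerve and sensory genes (9.62% of named genes). TH, HTR3B and GJA10 were well above background on no control array. They were tested only because the 8-week arrays were bright, so their difference could go only one way. Of 41 named genes of that kind 25 were called higher (61%).

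Of the 9 tested genes of fat and lipid metabolism APOC4 and PPARA were called, both higher (9.62% of named genes). Both were tested only because the 8-week arrays were bright, so their difference could go only one way. APOC4, an apolipoprotein, was at -4.3, -3.86, -3.4 and -3.57 in the controls and at -1.84, -2.23, -2.22 and -2.18 at 8 weeks. No control was above background, and it was at least 2.96-fold higher (limma, adjusted p = 0.00276), or at least 2.47-fold and not called (0.0763) without control replicates 1 and 2. PPARA, a nuclear receptor that turns on the burning of fatty acids, was higher by at least 1.52-fold (0.00496), and its other 2 probes rose by 2.1 and 2.15. PPARA was well above background on no array of the control or the 2-week group. C9, of the terminal complement complex, rose by 0.67 ± 0.13 (0.00226).

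Some bright genes fell slightly. ACTG1, a cytoplasmic actin, was at 7.88, 7.99, 8.18 and 7.94 in the controls and at 7.51, 7.32, 7.53 and 7.55 at 8 weeks. The groups did not overlap and each was tight. ACTG1 fell by 0.52 ± 0.1 (SE; limma, adjusted p = 0.00214), its 4 other probes fell by 0.63 to 0.76, and under the other scalings the fall was 0.32 (quantile) and 0.69 (median). With normexp the difference was -0.46 and not called (0.685). It was at 8.1 at 2 weeks and at 7.5 and 7.6 at 1 and 4 weeks.

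SLC25A4, the nucleotide carrier of mitochondria, most abundant in muscle and heart, was at 6.59, 6.97, 6.47 and 6.26 in the controls and at 5.87, 6.19, 6.27 and 5.97 at 8 weeks, and the groups overlapped narrowly. It fell by 0.5 ± 0.14 (SE; limma, adjusted p = 0.0265); without control replicates 1 and 2 the difference was -0.29 and not called (0.356), nor was it under quantile normalization (0.0903) or in the fit to the 8 arrays alone (0.0873), or without any one of 8-week replicates 1 and 4 and control replicates 1 and 2 (up to 0.104). Of the genes often used as references ACTB differed by -0.12 ± 0.13 and GAPDH by -0.27 ± 0.23, and neither was called. The 6 other probes named ACTB ran from -0.12 to -4.77, and 3 of them were called lower. ACTB's small difference turned to 0.04 under quantile normalization.

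The probes with no gene name moved as far as the named ones. A_04_P040606 was at -6.06, -4.61, -4.91 and -5.78 in the controls and at -1.15, -1.66, -1.86 and -1.52 at 8 weeks. It was above background on every 8-week array and no control, at least 4.83-fold higher (limma, adjusted p = 1.09e-07). A_04_P040606 was tested only because the 8-week arrays were bright, so its difference could go only one way. Its 2-week level was -2.71, nearer to the 8-week arrays than to the controls of its own scan day.

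A_04_P033663 was at least 6.62-fold higher and A_04_P079982 at least 3.65-fold (limma, adjusted p = 4.05e-06 and 0.000684), with 2-week levels of -2.59 and -3.73 against -4.4 and -5.36 in the controls. Both were well above background on no control array. They too were tested only because the 8-week arrays were bright, so their differences could go only one way. With normexp A_04_P040606, A_04_P033663 and A_04_P079982 differed by 1.22, 1.31 and 0.96, and none of them was called.

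Among the falls, A_04_P004216, which the files describe as mitochondrial creatine kinase, was at 0.99, 3.72, -1.49 and -3.31 in the controls and at -6.47, -6.39, -6.27 and -6.55 at 8 weeks. Control replicate 2 was again the highest and all controls lay above the 8-week arrays. A_04_P004216 was at least 18.5-fold lower (limma, adjusted p = 0.000312). This probe and A_04_P030742 were well above background on no 8-week array. They were tested only because the controls were bright, so their differences could go only one way. A_04_P030742 was at least 19.2-fold lower, though not called in the fit to the 8 arrays alone (0.0575), and A_04_P029076 fell by 5.62 ± 1.14 (SE; adjusted p = 0.00415 and 0.00365), both with control replicate 2 at the top, at 4.01 and 4.31. Without control replicates 1 and 2 the bounds were 3.57-fold for A_04_P004216 and 3.44-fold for A_04_P030742, and A_04_P029076, above background on 1 of 4 arrays at 8 weeks, was not called (0.0687).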

How the data were processed

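The deposited values are spot intensities of Agilent one-colour arrays, in arbitrary linear units, read by the authors with Agilent Feature Extraction 10.7.1.1 per the file headers, with background subtracted. The authors' value table, also intensity, equals the scanner values; its 8-week columns equal other arrays of that group, so replicate numbers there are uncertain. Outlier spots (18 to 62 per array) and control spots were left out; no spot was saturated, and 9473 to 12605 spots per array held a substituted low signal. Log2 intensities minus each array's 75th percentile were fitted with limma 3.58.1 (R 4.3.3), which was tested on simulated data. The value table is thus linear with no centring, with column medians of 44.12 to 73.94 in these groups. A bound sets the brighter mean against the higher, per dim array, of the probe and the lowest signal above background. Names came from the files and a RefSeq table: 3048 probes (6.99%), 1018 genes, each by its brightest tested probe. Named by rule are the 12 largest rises and falls without overlap, up to 4 called per list, a panel and 6 unnamed probes. Some other list members, and AOAH and CX3CR1 from outside the lists, are mentioned beside them. Members and lists were chosen with earlier results of these data known.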

Additional observations from a re-analysis of the deposited data

Results flagged for a closer look

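On single arrays, a level stood far from the other 3 of its group for 8 of the genes and probes described. Chance gives this in about 1 in 20 groups, or 6.4 of the 128 groups examined, so this count is near what chance gives. The gap to the nearest array, as a share of the group's range, was 0.857 for MYH1 (8-week replicate 3, at -5.2), 0.952 for MYH8 (8-week replicate 4, at -3.82) and 0.883 for SLC2A4 (8-week replicate 3, at -5.15). It was 0.89 for LUM (8-week replicate 1, at 5.12), 0.878 for APOC4 (8-week replicate 1, at -1.84) and 0.87 for MMP3 (8-week replicate 4, at -1). For A_04_P030742 it was 0.863 (8-week replicate 4, at -6.42), and for CXCL8 0.897 (control replicate 3, at -1.28).

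The change at 8 weeks differed from that at 2 weeks, both against the same controls, for 18 genes and probes (limma, 8 weeks minus 2 weeks). The 8-week and 2-week groups lay on different slides and scan days, which cannot be told apart from time. In the 2-week group TH, GJA10, CASP14, SERPINB2, HTR3B, KCNE1, SLC12A3 and PPARA were well above background on no array, and CACNA1E, APOC4 and KCNJ11 on 1, so these differences rest in part on dim spots and their sizes are fitted values, not measured folds. The difference was 1.13 for TH, 2.49 for GJA10, 1.83 for CASP14, 1.01 for OVGP1, 2.51 for SERPINB2 and 1.98 for HTR3B. It was 1.64 for KCNE1, 1.45 for SLC12A3, 1.79 for CACNA1E, 1.25 for CXCL8 and 1.15 for CXCR2. APOC4 differed by 1.72, PPARA by 2.75, KCNA5 by 0.84 and KCNJ11 by 1.59. The probes A_04_P040606 and A_04_P033663 differed by 1.17 and 1.5. ACTG1 was the 1 gene that was lower at 8 weeks than at 2, by -0.62.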

How the results depend on the processing

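Probes called, 3419 as reported, moved to 39 with normexp (3 on the 8 arrays alone and 462 without the fourth 2-week array, both added after seeing the data), 2200 when a probe had to be above background on all 8 arrays, 5695 with array weights and 943 without control replicates 1 and 2. Leaving out single arrays gave 1986 (control replicate 2) to 3876, with 2085 without 8-week replicate 1 and 2127 without control replicate 1. Named genes called, 123, moved to 2, 0 and 32 under the normexp settings, 64, 185 and 51 in the same order, and ran from 86 to 138 without single arrays. With normexp on the 8 arrays alone, 3833 probes had an unadjusted p under 0.05. HTR3B turned to -0.02 in each normexp setting. The muscle difference was -1.96 without control replicates 1 and 2 and -4.37 to -2.71 without single arrays. The fits alone do not alter that mean, so it was not run under them. The labels do not say that the replicate numbers pair rabbits. Deviations of same-numbered arrays correlated at -0.004, 0.013, -0.013 and -0.076, which cannot settle it, since replicate numbers in the 8-week group are uncertain. With the replicate block 3277 probes and 125 named genes were called, and TNF passed the threshold. Of the 64 genes and probes named by rule, 47 were called. Of these, 15 lost their call without control replicates 1 and 2, and 45 with normexp. The number of arrays and dim signals limit precision.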
